A study of Mus musculus with 4 samples.

Results

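The genes described here are those of the type I interferon response in mouse osteoclast precursors with and without the stretch-activated channel Piezo1. They were chosen by role, as a set of 41 symbols that covers the interferon receptors and signal transducers, the sensors of nucleic acid and the genes that interferon induces, and the rule uses no measured value. In the table of 12799 genes, 33 of the 41 had a row under the listed symbol. Mb21d1 had a row under its newer symbol Cgas, which is given below by its values and kept out of the counts. The other 7, which are Zbp1, Ifit1, Ifit3b, Mx1, Mx2, Usp18 and Ifi44, are not analysed here. Of the 33, 28 reached 1 CPM in at least 2 libraries and were tested together with the rest of the 11781 genes that did. The remaining 5, Ifit3, Oas1g, Isg15, Rsad2 and Cmpk2, had rows but stayed below that limit. CPM is the number of reads of a gene relative to the scaled size of its library.

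Knockout cells (n = 2 libraries) came from Csf1r-iCre;Piezo1fl/fl mice, and control cells (n = 2) from Piezo1f/f mice that carried the flanked alleles without recombinase. All were bone marrow-derived monocytes of female mice aged 12 weeks, kept for 3 days in RANKL at 50 ng/mL, the cytokine that drives osteoclast formation, together with M-CSF at 30 ng/mL, which sustains the monocyte lineage. The recombinase is driven by Csf1r sequences, which are active in the monocyte lineage. Whether it also acted in other cells of the culture was not tested. Because no control carried Csf1r-iCre, the transgene and the loss of Piezo1 cannot be told apart. The labels name no added interferon, and the number of mice behind each library was not stated in the labels.

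Summed over the 12799 genes in the table, the libraries held between 14122118 and 18897927 reads. Piezo1 was at 61.0 and 56.2 CPM in the knockouts, against 430 and 384 CPM in the controls, so the knockout mean was 14.4% of the control mean. The labels name no reporter, yet the transcript listed as Tdtomato was at 270 and 870 CPM in the knockouts, against 0.52 and 6.02 CPM in the controls. Whatever difference between the groups this transcript marks cannot be told apart from the loss of Piezo1 either. All 11 osteoclast markers and all 9 macrophage markers looked up had rows, with summed levels of 61014 and 75672 CPM (osteoclast) and 3765 and 4073 CPM (macrophage) in the knockouts, against 63050 and 60070 CPM (osteoclast) and 3941 and 3348 CPM (macrophage) in the controls, so the defining markers of the labelled cell type were present. Of cells known to make type I interferon, plasmacytoid dendritic cells had rows for 2 of 10 markers, Tcf4 and Runx2, which other cells also express. These 2 summed to 42.6 and 41.6 CPM in the knockouts, against 56.8 and 44.0 CPM in the controls. T and NK cells had rows for 2 of 12 markers. The 16 stromal and osteoblast markers summed to 1682 and 1514 CPM in the knockouts, against 2295 and 2805 CPM in the controls. Of these 16, 14 were negative and 10 (62.5%) lay below both controls, against 15.4% of all tested genes. limma called 1, edgeR 1 and DESeq2 8 of the 16, against 19, 19 and 66 of all 11781 tested genes. Before adjustment, 9 of the 16 (56.2%) had a limma p under 0.05, against 4.9% of all tested genes. Their part in the values below was not tested. In bulk RNA, fewer cells of a type and less RNA per cell cannot be told apart.

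Type I interferons, the interferon alphas and interferon beta, bind a receptor made of the IFNAR1 and IFNAR2 chains. The kinases JAK1 and TYK2 on its inner face then phosphorylate STAT2, which joins IRF9 in the complex ISGF3. This complex binds the interferon-stimulated response element (ISRE) in the promoters of antiviral genes. In mouse osteoclast precursors RANKL is known to induce interferon beta through c-Fos, and the cytokine in turn limits c-Fos and restrains differentiation, so the tone of this pathway belongs to the control of osteoclast formation.

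The promoters of the members were searched for the element that ISGF3 reads. RefSeq promoter windows (GRCm38.p6) matched 30 of the 41 members with 34 windows, and the 250 bases before each start were searched for the ISRE core, spelled GAAANNGAA on the strand of the gene or TTCNNTTTC on the other. The core was found in 13 of the 30 members (43.3%), against 2211 of 27025 genes with a promoter window (8.18%). By window it was 13 of 34 (38.2%), against 7.13% of 32851 windows. Among the receptors, kinases and transcription factors 1 of 9 held it, Stat2, and among the stimulated genes 11 of 18 did. The related GAS element, TTCNNNGAA on either strand, was found in 5 of 30 members (16.7%), against 8.13% of all genes. In 2 member windows both motifs were found, and in 1 of these they overlapped. A match is a string of letters and not a measured binding site. A member without a match may hold the core outside the 250 bases or before another start. For 22 of the 34 windows the first transcribed bases occurred in the GENCODE M21 transcripts.

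The stretches below are shown because they hold the ISRE core closest to the start in 9 members whose levels are given further on and in Ifit3b, the near copy of Ifit3. Each is 60 bases, written 5′ to 3′ on the strand of the gene, with every match to the core in capitals and overlapping matches run together.
Isg15 (chr4:156200851-156200910, minus strand): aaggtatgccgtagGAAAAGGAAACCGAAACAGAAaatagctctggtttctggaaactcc
Ifit3 (chr19:34583401-34583460, plus strand): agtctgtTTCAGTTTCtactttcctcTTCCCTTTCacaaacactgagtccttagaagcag
Ifit3b (chr19:34607797-34607856, plus strand): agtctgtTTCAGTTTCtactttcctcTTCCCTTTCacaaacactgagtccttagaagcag
Oas1a (chr5:120907526-120907585, minus strand): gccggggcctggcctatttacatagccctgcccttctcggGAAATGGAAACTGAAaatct
Oas1g (chr5:120887614-120887673, minus strand): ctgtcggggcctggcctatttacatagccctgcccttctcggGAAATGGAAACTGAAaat
Oas3 (chr5:120777695-120777754, minus strand): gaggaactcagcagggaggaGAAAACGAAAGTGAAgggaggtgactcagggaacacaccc
Rsad2 (chr12:26456538-26456597, minus strand): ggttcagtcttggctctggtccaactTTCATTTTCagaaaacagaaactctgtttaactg
Bst2 (chr8:71537563-71537622, minus strand): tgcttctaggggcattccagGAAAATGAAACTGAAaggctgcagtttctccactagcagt
Stat2 (chr10:128270251-128270310, plus strand): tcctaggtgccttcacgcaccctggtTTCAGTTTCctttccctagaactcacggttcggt
Ifih1 (chr2:62646334-62646393, minus strand): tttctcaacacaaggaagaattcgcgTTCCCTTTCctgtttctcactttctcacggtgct
In Isg15, Oas1a, Oas1g, Oas3 and Bst2 the matches repeat and overlap on the strand of the gene. The 60 bases shown for Ifit3 and Ifit3b are identical, and the upstream windows of the pair share an unbroken run of 169 bases. Those of Oas1a and Oas1g share a run of 56 bases. The likeness extends into the transcripts. Of all 45-base stretches in the Ifit3 transcripts, 53.5% also occur in Ifit3b, and 60.4% of those of Oas1a occur in Oas1g. The reads were 45 bases long, so the values of Ifit3, Oas1a and Oas1g are uncertain where reads could be placed in either copy.

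The pathway was present at the level of its receptors and kinases and near the detection limit for several of its best known induced genes. Per kilobase of exon, which allows genes to be compared, the 33 members ran from 0.143 CPM per kb for Cmpk2 to 30.0 CPM per kb for Jak1 as means of the 4 libraries, with a median of 1.41 CPM per kb. The 9 receptors, kinases and factors had a median level of 5.67 CPM per kb and the 19 stimulated genes one of 1.10 CPM per kb. In CPM, 5 of the 33 averaged less than 1, and 19 averaged less than 10. The members' median was 5.91 CPM, against 20.4 CPM for all genes in the table.

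**Figure D1:**
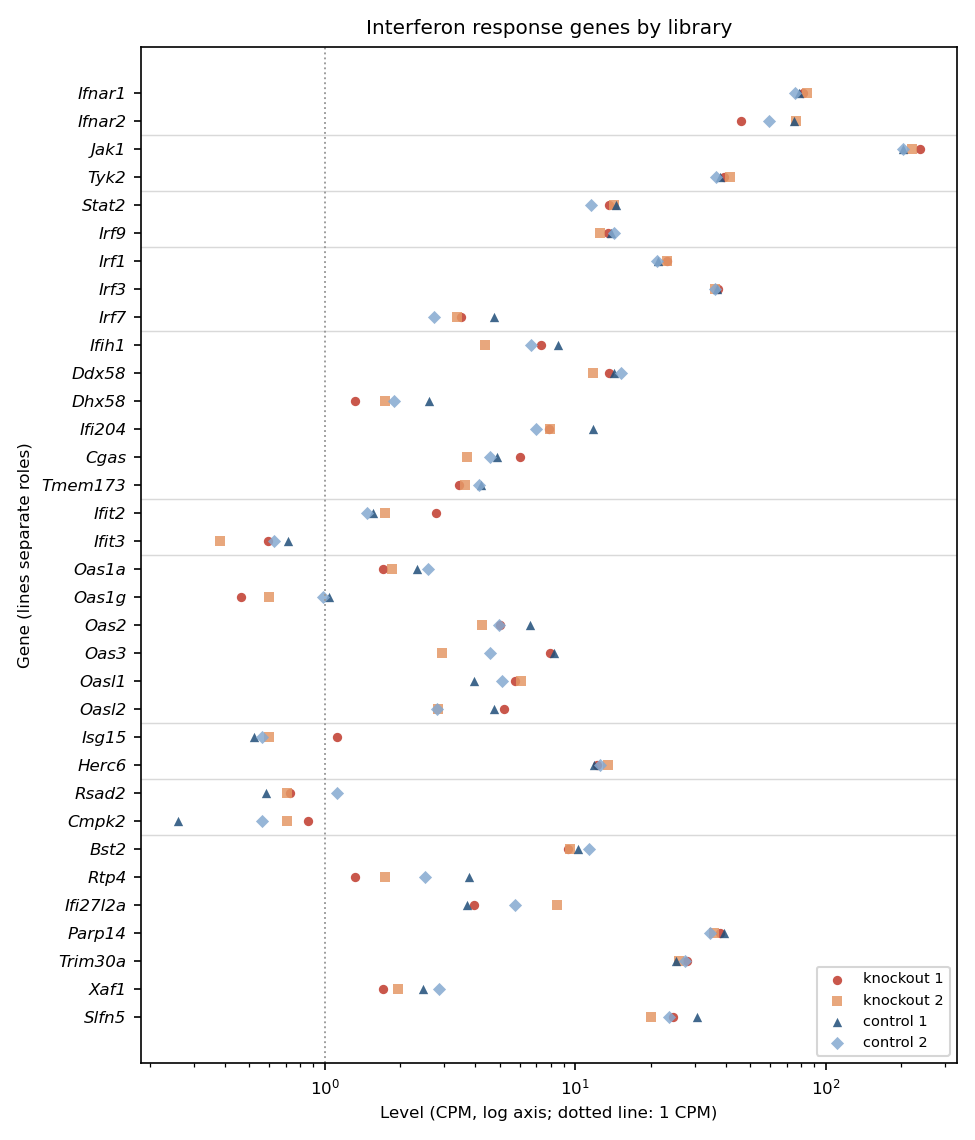
Level of each member with a row, and of Cgas, in the 4 libraries, in CPM on a log axis, with knockout and control libraries as separate symbols and roles separated by lines. Jak1 sits highest at 203 to 238 CPM, and Isg15, Ifit3, Rsad2 and Cmpk2 lie at about 1 CPM or less in every library.

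None of the members differed between genotypes by the test. With limma 0 of 28 passed at a Benjamini-Hochberg adjusted p under 0.05, against 0.161% of all tested genes, and 1, Rtp4, had an unadjusted p under 0.05, against 4.9% of all tested genes. edgeR and DESeq2 on the recovered reads also called 0 of the 28, against 19 and 66 of all 11781 tested genes. At an unadjusted p under 0.05 they had 1 and 0 of the 28, against 567 and 316 of all tested genes. The median log2 fold change, knockout over control, was −0.09 over the 28 members, against 0.0016 over all tested genes. Of the 28, 13 were positive and 15 negative, against 5945 positive and 5836 negative over all tested genes. The median was 0.0051 over the 20 members that reached 5 CPM in at least 2 libraries. With 1 library left out, it ran from −0.14 without control 2 to 0.02 without control 1.

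The intervals say how large a difference these libraries could have missed. For 23 of the 28 members (82.1%) the 95% confidence interval lay inside a 2-fold difference in either direction, against 92.4% of all tested genes. It lay inside a 1.5-fold difference for 12 of 28 (42.9%), against 69.2% of all tested genes. The 5 members whose interval reached beyond 2-fold were Dhx58, Ifit2, Oas3, Rtp4 and Ifi27l2a, which had between 20 and 155 reads in a library. For these 5 a 2-fold difference lay within the interval. Adding 0.5 shrinks the fold changes of low genes. The intervals of Ifih1, Oas1a and Xaf1 reached down to −0.995, −0.93 and −0.99 in turn. A 2-fold drop in CPM itself therefore also lay within the intervals of Ifih1, Oas1a and Xaf1.

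**Figure D2:**
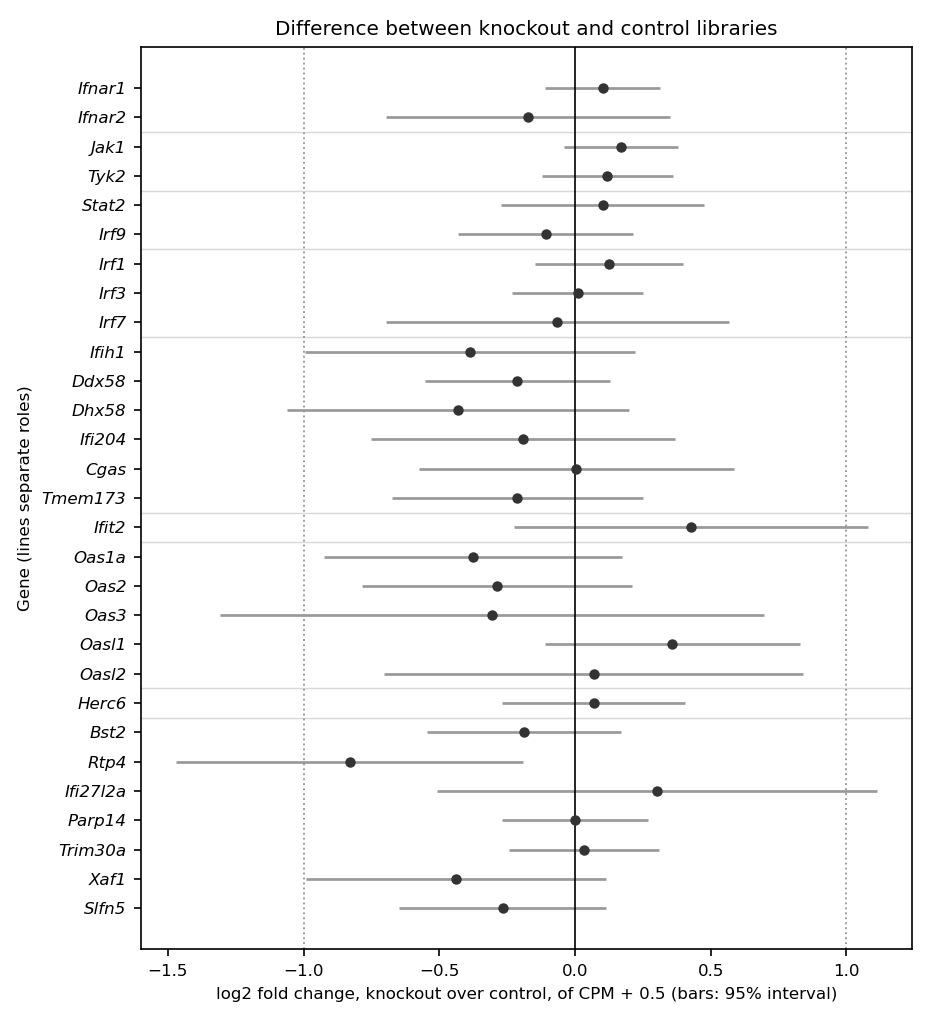
Log2 fold change of CPM + 0.5, knockout over control, with its 95% confidence interval for the 28 tested members and Cgas, and dotted lines at a 2-fold difference. The interval of Rtp4, −1.47 to −0.19, is the sole one that leaves out 0.

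The genes of both receptor chains lie on chromosome 16. Ifnar1 (91485238 to 91507441, plus strand, GRCm38) was at 81.4 and 83.9 CPM in the knockouts, against 78.5 and 75.5 CPM in the controls, a log2 fold change of 0.10 (95% confidence interval −0.11 to 0.31). Ifnar2, the chain that binds interferon most tightly (91372783 to 91405589, plus strand), was at 46.0 and 76.1 CPM in the knockouts, against 75.1 and 59.4 CPM in the controls. Ifnar1 was thus steady with the knockouts just above the controls, while Ifnar2 varied more within each genotype than between them and its groups overlapped. Without knockout 1 the log2 fold change of Ifnar2 was 0.19, and without knockout 2 it was −0.53. In M21, 8.05% of its 45-base stretches also occur in Gm21970, which shares exons with it on the same strand.

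For both kinases the knockouts lay above the controls. Jak1, which partners IFNAR2 and many other cytokine receptors, was at 238 and 221 CPM in the knockouts, against 203 and 204 CPM in the controls, and Tyk2, which partners IFNAR1, was at 39.4 and 41.6 CPM in the knockouts, against 37.9 and 36.7 CPM in the controls. The log2 fold changes were 0.17 for Jak1 (95% confidence interval −0.04 to 0.38) and 0.12 for Tyk2 (−0.12 to 0.36), with adjusted p of 0.9997 in limma. A 1.5-fold increase lay outside both intervals. Both genes overlap an exon of a gene on the opposite strand, Raver2 for Jak1 and 1700084C06Rik for Tyk2, and whether the counting used strand was not stated.

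Of the factors that carry the signal to DNA, Stat2 was at 13.7 and 14.3 CPM in the knockouts, against 14.6 and 11.5 CPM in the controls. Irf9, the DNA-binding part of ISGF3, was at 13.5 and 12.6 CPM in the knockouts, against 14.0 and 14.3 CPM in the controls. The groups overlapped for Stat2, and both knockouts lay below both controls for Irf9 by a log2 fold change of −0.11 (95% confidence interval −0.43 to 0.21). The interferon regulatory factor Irf1, itself induced by interferons, was at 23.3 and 23.3 CPM in the knockouts, against 21.4 and 21.1 CPM in the controls. Both knockouts lay above both controls for Irf1, by a log2 fold change of 0.13 (95% confidence interval −0.15 to 0.40). Irf3, which switches on interferon beta after sensing of nucleic acid, was at 37.4 and 36.1 CPM in the knockouts, against 36.7 and 36.3 CPM in the controls. Its log2 fold change of 0.0092 (95% confidence interval −0.23 to 0.25) was among the smallest of the set. Irf7, which amplifies interferon production and is itself interferon-induced, was far lower, at 3.50 and 3.37 CPM in the knockouts, against 4.74 and 2.73 CPM in the controls, so that the knockouts lay between the controls.

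The 5 tested sensors of nucleic acid all had negative log2 fold changes, as did 5836 of all 11781 tested genes. The median of the sensors was −0.21 and none passed the test. Ddx58, which encodes the RNA sensor RIG-I, was at 13.6 and 11.8 CPM in the knockouts, against 14.3 and 15.3 CPM in the controls. Ifih1, which encodes the RNA sensor MDA5, was at 7.33 and 4.35 CPM in the knockouts, against 8.57 and 6.65 CPM in the controls. Dhx58, a helicase that modulates both, was at 1.32 and 1.74 CPM in the knockouts, against 2.60 and 1.89 CPM in the controls. The knockouts lay below the controls for Ddx58 and Dhx58 and overlapped them for Ifih1. Tmem173, which encodes the adaptor STING, was at 3.43 and 3.64 CPM in the knockouts, against 4.22 and 4.13 CPM in the controls, again without overlap. Ifi204, a DNA-binding member of the p200 family, was at 7.85 and 7.94 CPM in the knockouts, against 11.8 and 7.0 CPM in the controls. Control 1 stood high for Ifi204, and 22.5% of the gene's 45-base stretches occur in other genes, mostly Ifi211. Cgas, the DNA sensor that makes the messenger for STING, was at 6.01 and 3.70 CPM in the knockouts, against 4.87 and 4.55 CPM in the controls, a log2 fold change of 0.0047 with overlapping groups. Control 1 was the highest library for 4 of the 5 sensors. Without control 1, 4 of 5 were negative and the median was −0.22, and without control 2 it was −0.55.

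Of the IFIT proteins, which bind foreign RNA, Ifit2 was at 2.77 and 1.74 CPM in the knockouts, against 1.56 and 1.47 CPM in the controls, which is 42 and 32 reads in the knockouts and 24 and 21 reads in the controls. Both knockouts lay above both controls, with a log2 fold change of 0.43 and a 95% confidence interval of −0.22 to 1.08. Without knockout 1 the log2 fold change was 0.15, and without knockout 2 it was 0.70. Ifit3 stayed under the filter, with 9 and 7 reads in the knockouts, against 11 and 9 reads in the controls. The pair therefore lay on different sides of their controls at counts where a few reads decide the order.

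The oligoadenylate synthetases, which make the activator of RNase L, formed the largest family, with members on either side of their controls and 0 of 5 past the test. Oas1a was at 1.72 and 1.85 CPM in the knockouts, against 2.34 and 2.59 CPM in the controls, and its near copy Oas1g at 0.46 and 0.60 CPM in the knockouts, against 1.04 and 0.98 CPM in the controls. In both, the knockouts lay below the controls, and since reads could be placed in either copy these may not be separate observations. Oas2 was at 5.02 and 4.24 CPM in the knockouts, against 6.62 and 4.97 CPM in the controls. Oas3 was at 7.92 and 2.94 CPM in the knockouts, against 8.25 and 4.55 CPM in the controls. For Oas2 and Oas3 the groups overlapped, and for Oas3 the libraries of 1 genotype differed more than the genotypes did. Oasl1, an OAS-like protein that in mice represses translation of Irf7, was at 5.74 and 6.09 CPM in the knockouts, against 3.96 and 5.11 CPM in the controls, and lay above in the knockouts. Oasl2 was at 5.21 and 2.83 CPM in the knockouts, against 4.74 and 2.80 CPM in the controls, with overlap. The median log2 fold change of the 5 tested members was −0.29. It was 0.09 without control 1 and 0.32 without knockout 2, but −0.32 without control 2 and −0.33 without knockout 1.

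The most inducible genes were close to the floor. Isg15, a ubiquitin-like modifier (chromosome 4, 156199424 to 156200818, minus strand, GRCm38), had 17 and 11 reads in the knockouts, against 8 and 8 reads in the controls, or 1.12 and 0.60 CPM in the knockouts and 0.52 and 0.56 CPM in the controls. Rsad2, which encodes viperin, had 11 and 13 reads in the knockouts, against 9 and 16 reads in the controls. Cmpk2, a nucleotide kinase that neighbours Rsad2 on chromosome 12, had 13 and 13 reads in the knockouts, against 4 and 8 reads in the controls. The knockouts lay above the controls for Isg15 and Cmpk2 and overlapped them for Rsad2. The 95% Poisson intervals, which cover counting error only, overlapped between knockout 1 and control 1 for Isg15 (0.654 to 1.80 CPM in knockout 1, 0.224 to 1.02 CPM in control 1) and for Cmpk2 (0.457 to 1.47 CPM in knockout 1, 0.0708 to 0.665 CPM in control 1). Overlap of such intervals is not a test of the difference. Isg15, Rsad2 and Cmpk2 were below the filter and were not tested. Herc6, the ligase that attaches ISG15 in mice, was at 12.2 and 13.5 CPM in the knockouts, against 11.9 and 12.6 CPM in the controls, with overlap.

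Rtp4 had the smallest p of the set. It encodes a transporter protein for chemosensory receptors that is also interferon-induced (chromosome 16, 23520291 to 23614222, plus strand, GRCm38). It was at 1.32 and 1.74 CPM in the knockouts, against 3.77 and 2.52 CPM in the controls, or 20 and 32 reads in the knockouts and 58 and 36 reads in the controls. Both knockouts lay below both controls. On the log2 scale the knockout minus control difference was −0.83 with an SE of 0.27 (95% confidence interval −1.47 to −0.19), with a limma p of 0.0176 and an adjusted p of 0.835. edgeR gave an adjusted p of 0.837 and DESeq2 one of 0.9999, and with 1 library left out the log2 fold change ran from −1.08 to −0.58. Of its 45-base stretches, 11.9% also occur in Gm45338, which overlaps it on the same strand.

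The other stimulated genes spanned a wide range of levels. Parp14, a mono-ADP-ribosyltransferase, was at 37.9 and 35.7 CPM in the knockouts, against 39.3 and 34.4 CPM in the controls, a log2 fold change of 0.0011 (95% confidence interval −0.27 to 0.27). Trim30a, which restrains inflammatory signalling, was at 28.0 and 25.9 CPM in the knockouts, against 25.3 and 27.5 CPM in the controls, and Slfn5, of the Schlafen family, at 24.5 and 20.2 CPM in the knockouts, against 30.5 and 23.7 CPM in the controls. All 3 overlapped between genotypes, and Slfn5 shares 11.6% of its stretches with other genes, mostly Slfn5os on the opposite strand. Bst2, which encodes tetherin and holds budding virus at the cell surface, was at 9.37 and 9.51 CPM in the knockouts, against 10.3 and 11.4 CPM in the controls. Xaf1, a pro-apoptotic antagonist of XIAP, was at 1.72 and 1.96 CPM in the knockouts, against 2.47 and 2.87 CPM in the controls. Both lay below in the knockouts, with 95% confidence intervals of −0.54 to 0.17 for Bst2 and −0.99 to 0.11 for Xaf1 on the log2 scale. Ifi27l2a, a small interferon-induced gene, was at 3.96 and 8.43 CPM in the knockouts, against 3.70 and 5.74 CPM in the controls. The second library of each genotype was the higher one for Ifi27l2a.

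Over the 28 tested members, the knockouts lay above both controls for 6 (21.4%), against 16.5% of all tested genes, and below both for 8 (28.6%), against 15.4%. In the remaining 14 the groups overlapped. By role, the receptors, kinases and factors had 4 above and 1 below of 9, and the sensors had 0 above and 3 below of 5. The stimulated genes had 2 above and 4 below of 14. These shares were not tested.

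**Figure D3:**
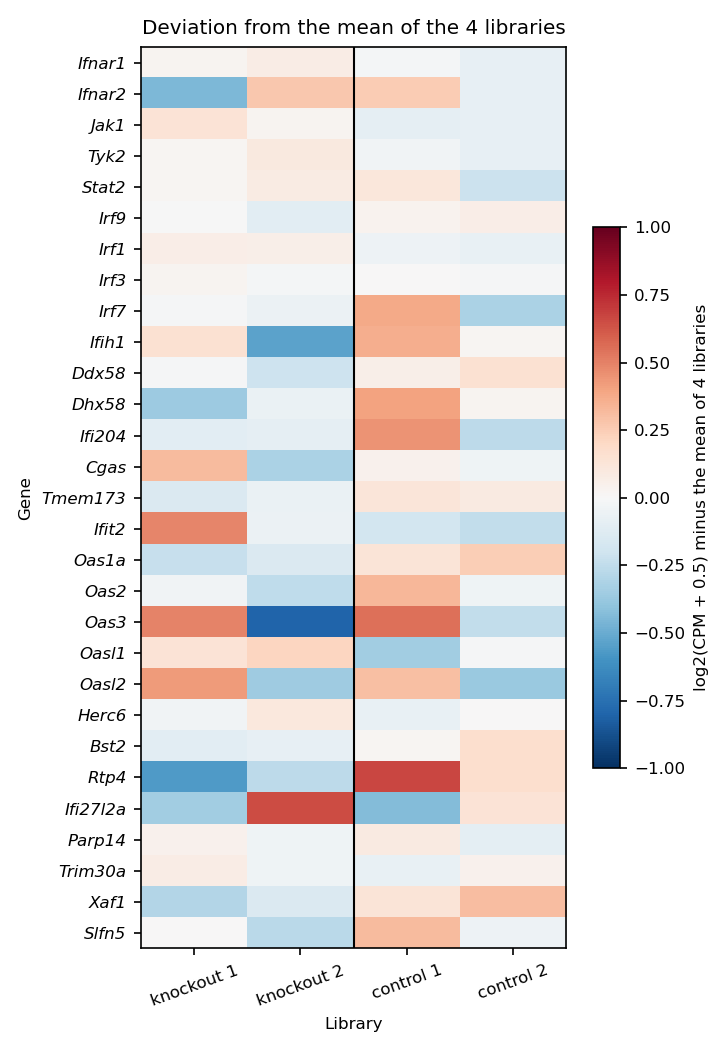
Deviation of each tested member, and of Cgas, from the mean of the 4 libraries in log2(CPM + 0.5), with knockout libraries left of the line and control libraries right of it. Control 1 is the highest library for 11 of the 28 members.

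The summed level of the 19 stimulated genes was 151 and 140 CPM in the knockouts, against 158 and 146 CPM in the controls, so that the groups overlapped. For the 5 sensors it was 33.5 and 29.5 CPM in the knockouts, against 41.4 and 34.9 CPM in the controls, and the 9 receptors, kinases and factors summed to 496 and 512 CPM in the knockouts, against 486 and 462 CPM in the controls. The kinases, mostly Jak1, made up 278 and 263 CPM of the last sum in the knockouts and 241 and 241 CPM in the controls, while the sums of the receptors, of Stat2 with Irf9 and of the other factors each overlapped between genotypes. The highest library was control 1 for both the sensors and the stimulated genes, and knockout 2 for the receptors, kinases and factors. Control 1 was the highest of the 4 libraries for 11 of 28 members, against 2679 of 11781 tested genes. The median deviation of the members from the mean of 4 libraries was −7.0e-05 and −0.06 in the knockouts, against 0.10 and −0.03 in the controls.

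Some members split the libraries by replicate number rather than by genotype. Oas3 differed between library 1 and library 2 by 1.29 in the knockouts and 0.79 in the controls on the log2 scale, and Oasl2 by 0.78 in the knockouts and 0.67 in the controls. Ifih1 was also higher in library 1 of both genotypes. Ifi27l2a went the other way, by −1.0 in the knockouts and −0.57 in the controls. Library 1 was above library 2 in both genotypes for 10 of 28 members (35.7%), against 21.5% of all tested genes, and below it in both for 6 of 28 (21.4%), against 22% of all tested genes. Of the 9 macrophage markers, 6 were also above in library 1 of both genotypes, with a median difference of 0.30 in the knockouts and 0.28 in the controls. The median of the 11 osteoclast markers was −0.33 in the knockouts and 0.18 in the controls, and the part of these markers in the split was not tested. The interferon genes above were singled out after their values were seen, and the labels do not say that a replicate number marks a shared day or litter. Irf8, a factor that represses osteoclast formation, showed the same split, at 6.27 and 3.37 CPM in the knockouts, against 6.23 and 3.71 CPM in the controls.

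**Figure D4:**
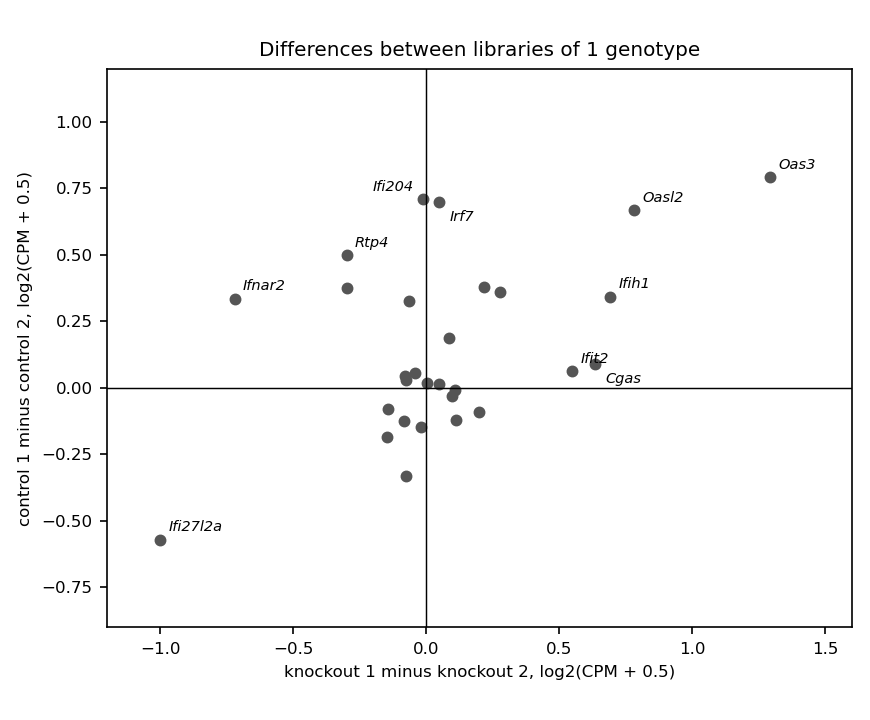
Difference between the libraries of 1 genotype for the 28 tested members and Cgas, as knockout 1 minus knockout 2 (horizontal) and control 1 minus control 2 (vertical), both in log2(CPM + 0.5). Oas3, Oasl2 and Ifih1 sit at the upper right, higher in library 1 of both genotypes, and Ifi27l2a sits at the lower left.

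Members with the ISRE core before their start overlapped in level with those without it. The 11 such members with a row had a median level of 0.926 CPM per kb, and the 15 without the core one of 2.00 CPM per kb, with ranges of 0.181 to 11.2 CPM per kb and 0.143 to 30.0 CPM per kb. The median log2 fold change was −0.27 over the 7 tested members with the core and 0.07 over the 14 without, with 5 of 7 and 5 of 14 negative. Over the 7 with the core the median was −0.09 when control 1 was left out, −0.04 when knockout 2 was and −0.33 when knockout 1 was, and over the 14 without the core it ran from 0.04 to 0.13 with 1 library left out. Among the promoters shown above, those of Isg15 and Rsad2 belong to genes at about 1 CPM or less, and that of Bst2 to a gene at about 10.1 CPM on average. The 2 groups of members were not compared by a test.

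**Figure D5:**
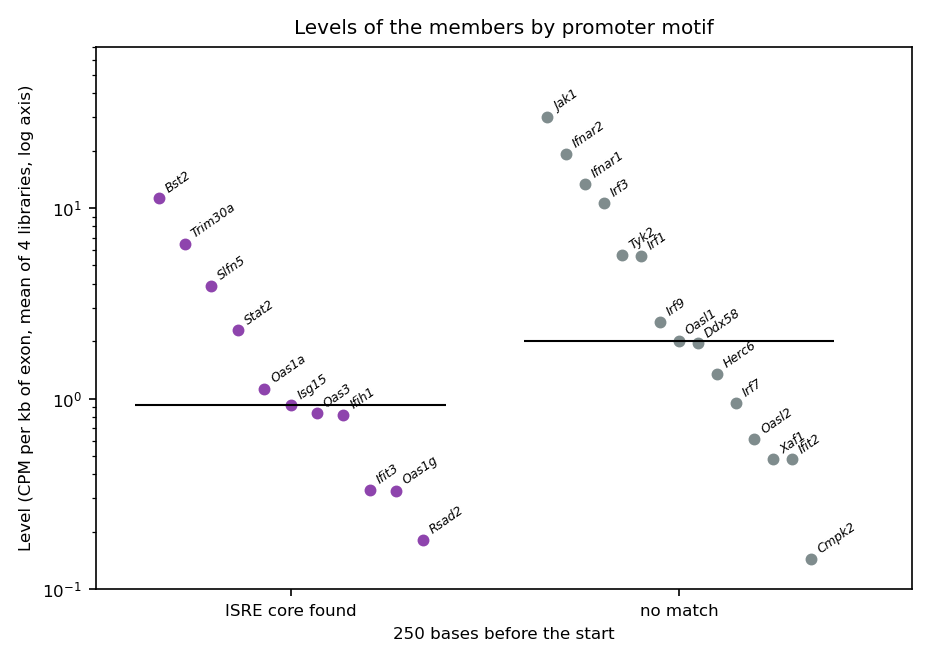
Level of each member with a row and a promoter window, in CPM per kb of exon as the mean of 4 libraries on a log axis, split by whether the ISRE core was found in the 250 bases before the start, with lines at the medians of 0.926 and 2.00 CPM per kb. Both columns span from under 0.2 to over 11 CPM per kb.

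The other genes of the pathway were looked up from lists. Of 127 companion genes looked up, 97 had rows and 94 were tested. Of the 94, limma called 0, edgeR 0 and DESeq2 0, against 19, 19 and 66 of all 11781 tested genes. At p under 0.05 before adjustment there were 1 by limma, 1 by edgeR and 0 by DESeq2. Over all tested genes there were 577, 567 and 316 in turn. The median log2 fold change of the 94 was −0.02, with 41 positive and 53 negative. It ran from −0.04 to −0.0010 with 1 library left out. The gene of interferon beta, Ifnb1, is among those not analysed here, as are Socs1 and Cxcl10.

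Of 26 tested regulators, 15 had positive and 11 negative log2 fold changes, with a median of 0.0085. Socs3, a feedback inhibitor of JAK kinases, was at 5.15 and 4.08 CPM in the knockouts, against 5.26 and 6.51 CPM in the controls. Rnaseh2c, a subunit of RNase H2, had the smallest p of these regulators and was at 50.6 and 44.8 CPM in the knockouts, against 36.0 and 44.4 CPM in the controls. The phosphatase gene Ptpn11 was at 187 and 201 CPM in the knockouts, against 182 and 177 CPM in the controls. Traf3, an adaptor of the pathways that induce interferon, was at 159 and 158 CPM in the knockouts, against 153 and 145 CPM in the controls.

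Among 56 further stimulated genes, 20 were positive and 36 negative, with a median of −0.05. With 1 library left out the negative ones numbered 30 to 33, and the median was −0.01 without control 1 and −0.02 without knockout 2. Ly6a, which encodes the surface antigen Sca-1, was at 1.25 and 1.14 CPM in the knockouts, against 2.01 and 2.87 CPM in the controls, and had the one unadjusted p under 0.05 (0.0214, adjusted p = 0.885 in limma). Ifitm3, which blocks viral entry at membranes, was at 10.8 and 8.75 CPM in the knockouts, against 11.8 and 14.3 CPM in the controls, and Ddx60, a helicase, at 1.39 and 0.98 CPM in the knockouts, against 1.95 and 1.96 CPM in the controls. The knockouts lay below the controls in all 3, which were named for their small p. Of the 56, 10 (17.9%) lay below both controls, against 15.4% of all tested genes. Another 4 (7.14%) lay above both, against 16.5%. Parp11 lay above, at 19.6 and 18.1 CPM in the knockouts, against 16.3 and 15.6 CPM in the controls. Mlkl, the effector of necroptosis, was at 20.3 and 21.9 CPM in the knockouts, against 24.3 and 24.8 CPM in the controls. Of 12 tested genes of the interferon gamma response, 6 were positive and 6 negative, and Gbp2, a guanylate-binding protein, was at 2.51 and 1.3 CPM in the knockouts, against 2.66 and 2.38 CPM in the controls. Its relatives Gbp3 and Gbp7 were at 5.61 and 3.21 CPM (Gbp3) and 43.9 and 47.2 CPM (Gbp7) in the knockouts, against 4.74 and 5.11 CPM (Gbp3) and 40.7 and 43.9 CPM (Gbp7) in the controls. Irgm1, an immunity-related GTPase, was at 9.44 and 8.43 CPM in the knockouts, against 10.4 and 10.0 CPM in the controls. It was the one gene of these 12 with both knockouts below both controls (8.33%, against 15.4% of all tested genes). Batf2, a transcription factor, was at 1.98 and 2.39 CPM in the knockouts, against 1.49 and 2.03 CPM in the controls.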

How the data were processed

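Poly(A) RNA, read as pairs of 45 bases, of 4 libraries, 2 knockout and 2 control, was compared. The authors deposited 1 table of normalised signal per gene, made with STAR, featureCounts of Subread and edgeR on mm10 (GRCm38), per the submitters' processing notes. Their versions, annotation, strand setting and filter on low genes are not stated there. The signal is CPM with TMM scaling: 100% of values were whole multiples of what 1 read is worth, within 0.001 reads, which gives back the reads, and CPM recomputed from them differed by at most 4.9e-11. One read was worth 0.0544 to 0.0700 CPM.

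limma with an intensity trend was run on log2(CPM + 0.5), 2-sided, for genes that reached 1 CPM in at least 2 of the 4 libraries, with genotype as the one term and Benjamini-Hochberg adjustment over all tested genes at a threshold of 0.05. Fold changes on this scale understate those of low genes. With 2 libraries against 2, p = 0.333 is the smallest an exact permutation test allows. The libraries are called biological replicates in the design text. Every pair of libraries differed beyond sampling noise (chi-square per degree of freedom 11.5 to 23.2). The value was highest between the 2 knockouts (23.2) and lowest between the 2 controls (11.5). Pairs of a knockout and a control ran from 12.5 to 21.8. The comparison was repeated with each library left out, with a replicate block, with other scalings, filters, pseudocounts and variance models, and with edgeR and DESeq2 on the recovered reads.

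The members and lists were chosen with earlier results of these data known. Every member with a row was named, as were the 5 genes of each companion list with the smallest p, plus Irf8, except that 1 gene is not reported here. Exon lengths, positions and transcripts came from GENCODE M21 (GRCm38). Simulated reads were used to test the limma step. Promoter sequences came from RefSeq (GRCm38.p6). The work used DESeq2 1.42.0, limma 3.58.1 and edgeR 4.0.16 in R 4.3.3, and pandas 2.3.3, NumPy 2.4.6 and matplotlib 3.10.9 in Python 3.11.15.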

Additional observations from a re-analysis of the deposited data

How the results depend on the processing

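No member and no companion gene passed under any of the 15 alternatives, and the smallest adjusted p of a member was 0.329. The number of genes called over the whole table was 19 and moved to 4 without an intensity trend, 89 with the replicate block and 66 with DESeq2, and ran from 7 without control 1 (8 without control 2) to 76 without knockout 1 (61 when knockout 2 was left out). Same-numbered libraries did not deviate together over all genes (correlation −0.0016), so the shared numbers were not taken as pairs. The members' median of −0.09 was 0.0051 with a limit of 5 CPM and ran from −0.141 to 0.0161 with 1 library left out. Of 426 fold changes of members and Cgas under an alternative, 17 changed sign with 1 library left out and 5 under other settings. With 1 library left out, the log2 fold change spanned 0 in 12 genes: Cgas from −0.31 to 0.32, Herc6 from −0.0032 to 0.14, Ifi204 from −0.55 to 0.16, Ifi27l2a from −0.20 to 0.80, Ifnar2 from −0.53 to 0.19, Irf3 from −0.0141 to 0.0325, Irf7 from −0.41 to 0.28, Oas3 from −0.95 to 0.34, Oasl2 from −0.32 to 0.46, Parp14 from −0.0927 to 0.0949, Stat2 from −0.0621 to 0.26 and Trim30a from −0.0281 to 0.0925. With library totals in place of TMM, Cgas was at −0.0163, Irf3 at −0.0145 and Parp14 at −0.0225, and Parp14 was at −0.0052 in edgeR and −0.0058 in DESeq2. Among those that kept their sign, Ifih1 ran from −0.73 to −0.04, Slfn5 from −0.45 to −0.09, Oas2 from −0.48 to −0.10, Oasl1 from 0.19 to 0.52 and Ifit2 from 0.15 to 0.70 with 1 library left out. The cause of these changes was not tested. Depth limits Isg15, Ifit3, Oas1g, Rsad2 and Cmpk2, with 4 to 17 reads in a library.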
